A study of Mus musculus with 80 samples.

Results

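The genes described are those that encode the machinery of oxidative phosphorylation, taken from both genomes of the mouse cell. Members were the rows of the gene count table whose symbols name subunits of complexes I to V (Nduf, Sdh, Uqcr, Cox4 to Cox8 and Atp5 for the nuclear genome, mt-Nd, mt-Cytb, mt-Co and mt-Atp for the mitochondrial genome), without names marked as pseudogenes, and with at least 10 counts in 4 or more libraries. Of the 78275 rows, 131 matched these symbols, 16 of them carried a pseudogene name, and 8 of the rest were under the minimum, which left 107 members. The nuclear set had 94 members and the mitochondrial set 13, which are all the protein-coding genes of the mitochondrial genome. By symbol, the nuclear set held 39 subunits of complex I, 8 complex I assembly factors (Ndufaf genes), 4 subunits of complex II, 8 of complex III, 13 of complex IV, 18 of complex V and 4 isoforms best known from other tissues or states. Among those of complex I, Ndufb4c is a processed pseudogene in the GRCm38 annotation, and Ndufb1 is named Ndufb1-ps there. The rows under the minimum were Cox6a2, Cox7b2, Cox8b, Cox8c, Ndufa11b, Ndufb11b, Ndufs6b and a second Atp5po row. Just inside the minimum, Cox4i2 reached 10 counts in 5 libraries and had 307 counts in all, and just outside it, Cox6a2 had 100 counts in all and reached 10 in 0 libraries.

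Oxidative phosphorylation takes place in the inner mitochondrial membrane. Complexes I and II accept electrons from NADH and from succinate, complexes III and IV pass them to oxygen while protons are pumped, and complex V, the ATP synthase, uses the returning protons to make ATP. Complex II is encoded wholly in the nucleus, whereas the other complexes combine nuclear subunits with subunits that are transcribed from the mitochondrial genome as long precursors and cut apart at the tRNAs between them. In liver, this machinery also reoxidizes the NADH that fatty acid oxidation yields during a fast and supplies the ATP that gluconeogenesis spends.

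Livers of C57BL/6J mice of 8 to 12 weeks of age were measured by strand-marking, poly(A)-selected RNA-seq in constant darkness, which followed days under a light and dark cycle. Sampling ran every 4 h from circadian time 8 (CT8) to CT44. Control mice kept food throughout, and fasted mice lost it at CT10, so that the fasted group of CT8 had not yet been fasted and the later ones had been without food for 2 to 34 h. Each of the 10 times had 2 males and 2 females per treatment, each liver from a different mouse, which gave 80 libraries placed in their groups by title.

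Total gene counts per library were 25530000 to 59930000, with a median of 42300000. Fgf21, a hormone that liver secretes in fasting, had a median of 0.333 CPM (counts scaled to equal library totals) in controls and 8.11 CPM in fasted livers from CT12 to CT44 (n = 36 each), and Srebf1, the regulator of lipogenesis, had 423 and 42.5 CPM. No library went against the sex in its title (0 of 80), and no 2 libraries of a group were duplicates. One library stood apart. In control CT8 female 2, the row Rn18s-rs5, named for a ribosomal RNA, took 31.3% of counts, against at most 4.88% in the other libraries, and both member sets had their lowest share of counts there. Effects are log2 ratios with their standard error (SE). Adjusted p-values come from edgeR's quasi-likelihood test over all genes tested, with 0.05 as the threshold for a call. Liver tissue was measured in bulk, in which fewer cells of a type and less RNA per cell cannot be told apart.

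The mitochondrial members were by far the more abundant set. They took 3.26% to 7.02% of all gene counts (median 5.84%, n = 80), and the 94 nuclear members together took 0.521% to 1.12% (median 0.986%). In the counted level per kilobase of transcript, in controls, the mitochondrial genes spread over 2 orders of size, from mt-Co1 at 12740 CPM per kb, mt-Cytb at 8435, mt-Nd2 at 6112 and mt-Nd1 at 6008, through mt-Nd4 at 3637, mt-Nd5 at 3292, mt-Atp6 at 2526, mt-Co2 at 2007 and mt-Co3 at 1500, down to mt-Nd4l at 685.9, mt-Atp8 at 535.8, mt-Nd3 at 262.4 and mt-Nd6 at 127.6. The most abundant nuclear members per kilobase were ATP synthase subunits, Atp5f1b, the catalytic beta subunit, at 585.6 CPM per kb, Atp5mc3, the membrane rotor subunit, at 349.2, and Atp5f1a, the alpha subunit, at 335.6. Cox6a1, the liver form of a small cytochrome c oxidase subunit, followed at 300.4, and the assembly factor Ndufaf4 was at 8.769. These levels are medians over 40 control livers, and the length is that of 1 transcript per gene. Overlaps between genes and, for mt-Nd6, the poly(A) selection are described below, and their part in these levels was not tested.

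Some of these levels depend on how reads from near-identical sequences were shared. On GRCm38, chromosome 1 carries an unprocessed nuclear copy of part of the mitochondrial genome, and 7 of the 13 mitochondrial members had a copy there with at least 98% identity over at least 30% of their transcript. Counts given to the copy came to 67.9% of those of mt-Atp6 (copy Gm10925), 55.9% for mt-Co3 (Gm28437), 55.1% for mt-Nd4l (Gm10222) and 47.7% for mt-Co2 (Gm28661). For mt-Nd4 (Gm28439) and mt-Co1 (Gm29216), whose copies cover a part of the transcript, they were 9.68% and 4.43%. The copy of mt-Nd3, Gm28438, received 0 counts although it is 99.7% identical over the 345 bases aligned. The start of the mt-Nd3 transcript is shown with the matching stretch of that copy, because a single base separates them there (T3C, the mitochondrial base first, counted from the 5′ end of mt-Nd3), printed in capitals.
mt-Nd3, chrM:9459-9491, plus strand: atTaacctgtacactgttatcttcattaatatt
Gm28438, chr1:24613087-24613119, minus strand: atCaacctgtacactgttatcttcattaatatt

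Among nuclear members, 12 of those with a transcript in the annotation had a match of that kind, with the largest share of counts for Atp5mg (Gm10221, 23.5% of the member's counts), Atp5pd (Gm10250, 12.3%) and Cox5b (10.2%). For Ndufb6 the match was Smim27, a protein-coding gene that overlaps it on the other strand by 257 bases, and not a separate copy. Levels of members with a copy are therefore uncertain. When the counts of the copies of mitochondrial members were added to those members, an alternative chosen after seeing the data, the counts of calls for the mean fasting effect, its slope, both sex comparisons and the control rhythm did not move by over 1.5 times. The single times, the rhythm difference and the copies of nuclear members were not recomputed in this way. On the same strand, mt-Atp8 and mt-Atp6 share 43 bases and mt-Nd4l and mt-Nd4 share 7 bases. Several members also overlap a gene on the other strand, among them mt-Nd5 and mt-Nd6 (14 bases), Atp5if1 and Gm12999 (221 bases) and Ndufaf2 and B230220B15Rik (1955 bases), and the strand setting of the count is not given in the sources used here.

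The share of counts on the mitochondrial set was lowest at CT8 in both treatments. Its means were 4.81% in controls and 5.14% in fasted mice at CT8 (n = 4 each), 5.59% and 5.49% at CT12, 6.07% and 5.58% at CT16, 5.86% and 5.93% at CT20, 6.05% and 6.25% at CT36 and 6.37% and 6.50% at CT44. For the nuclear set the means were 0.846% and 0.908% at CT8 and 1.03% and 0.987% at CT12. The control means at CT8 include the rRNA-rich female 2, at 3.26% for the mitochondrial and 0.521% for the nuclear set. The medians at CT8 had the other order between treatments. They were 5.16% in controls and 5.04% in fasted mice for the mitochondrial set, and 0.934% and 0.920% for the nuclear set. At CT20, the nuclear share was 0.982% ± 0.0336 (SD, n = 4) in controls and 0.881% ± 0.0608 in fasted mice, so fasted livers then had the lower share. At CT36 the order was the other way, with 0.960% in controls and 1.04% in fasted mice, and at CT44 the means were 0.978% and 0.999%.

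**Figure D1:**
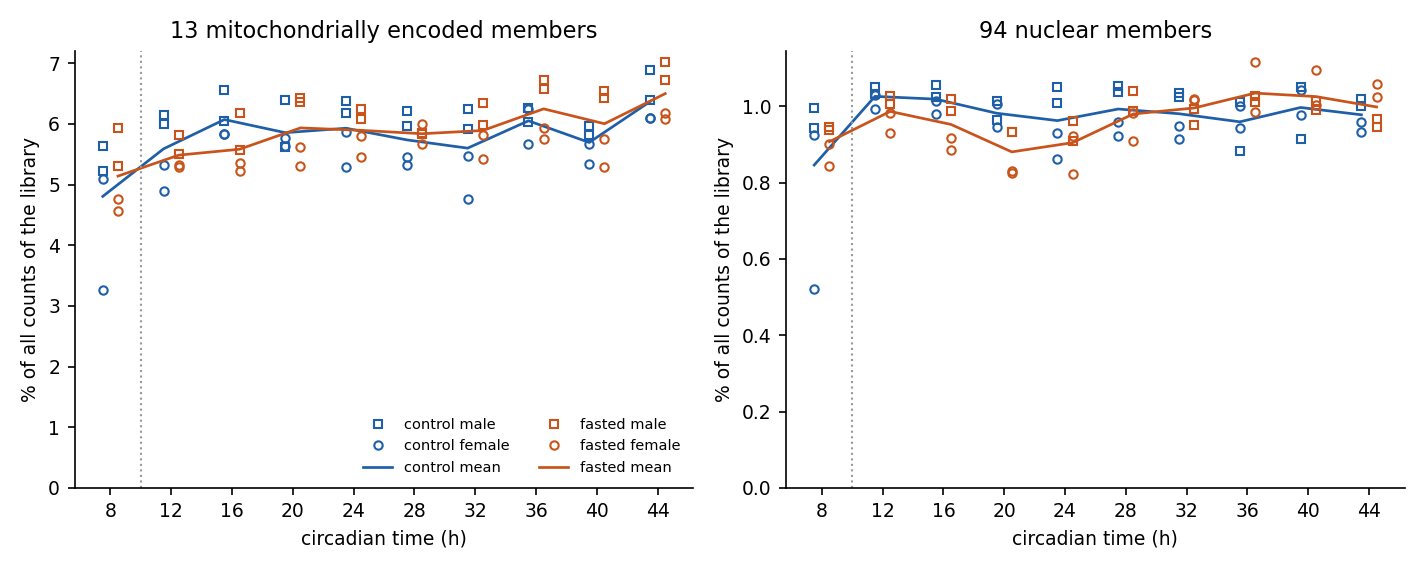
Percent of all gene counts of a library (linear axes from 0) on the 13 mitochondrial members, left, and on the 94 nuclear members, right, against circadian time (h). Squares are males and circles females, lines join means of 4 livers, and the dotted line is food removal at CT10. The mitochondrial share lies between 3.26% and 7.02% and the nuclear share between 0.521% and 1.12%, with control CT8 female 2 lowest in both.

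The first comparison asked how fasting, averaged over CT12 to CT44, changed the transcripts of each complex. Most nuclear members changed by small amounts: 43 of 94 were higher and 24 lower in fasted mice, against 29.5% higher and 32.9% lower of all genes, and the direction of this balance depended on scaling, since with library totals alone 12 were higher and 42 lower (all genes 20.8% and 42%). The median effect over nuclear members was 0.047 on the log2 scale, against -0.02 over all genes, and only 5 nuclear members moved by 1.5-fold or more, 1 up and 4 down. Of the 13 mitochondrial members, 6 were higher and 1 lower (2 and 4 with library totals alone), with a median effect of 0.033. Without the 20 libraries of male replicate 1, 25 nuclear and 3 mitochondrial members were called higher. With library totals alone the median of all genes was -0.11. Markers of other liver cells moved with treatment too, with 4 of 5 Kupffer cell markers lower (summed to 178.3 to 633.2 CPM in controls and 122.2 to 389.4 CPM in fasted mice), 4 of 5 cholangiocyte markers lower, 4 of 5 stellate cell markers lower and 1 higher, and of 5 hepatocyte markers 3 higher and 2 lower. Their part in the effects on members was not tested.

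**Figure D2:**
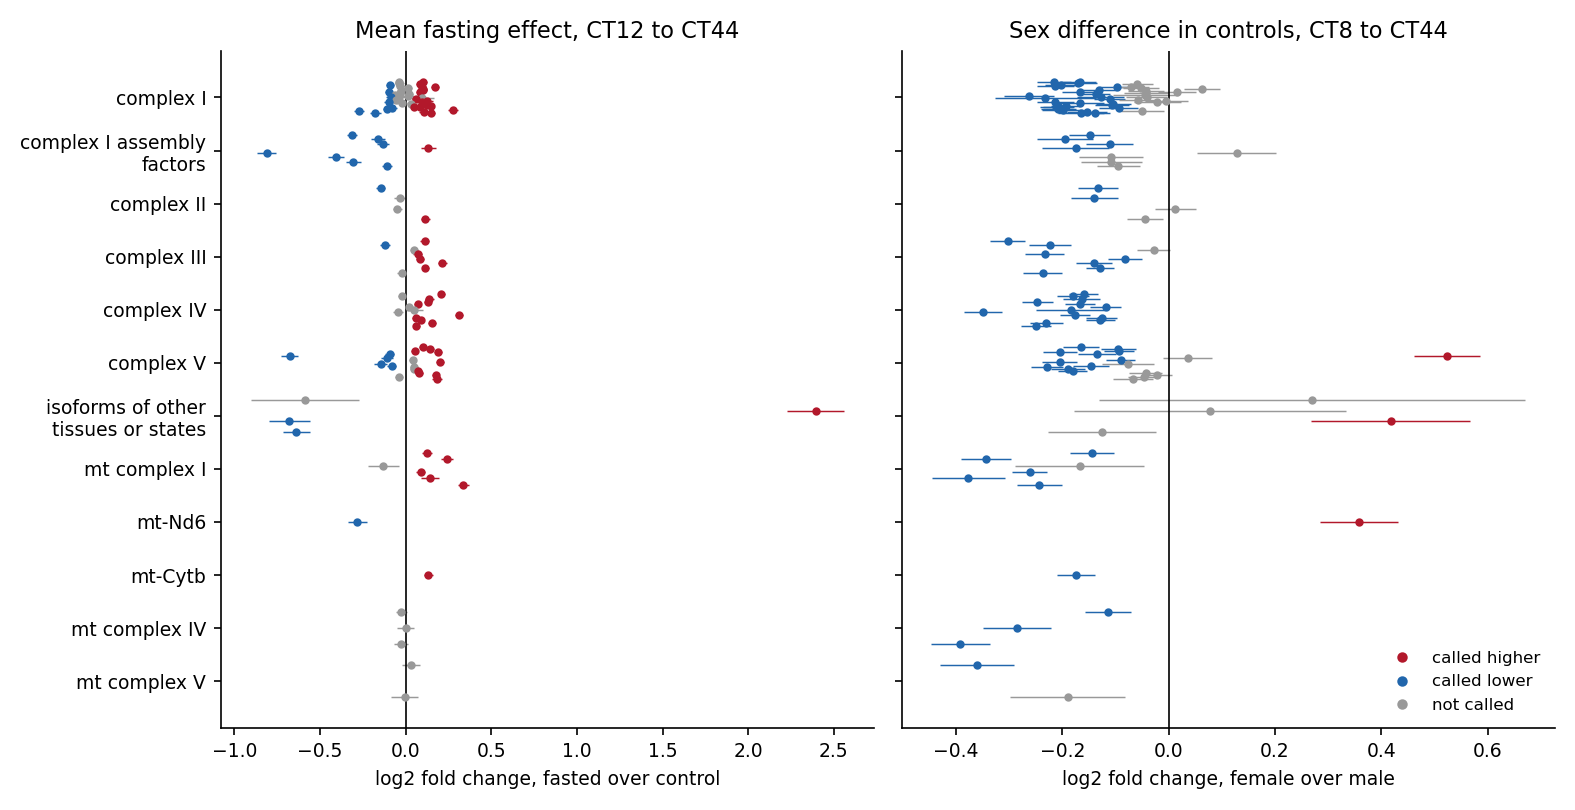
Log2 effect of each member by complex, with its standard error as a bar. Left is the mean fasting effect over CT12 to CT44 and right is the difference between females and males in controls, with called members (adjusted p under 0.05) in red or blue and the rest in grey. At left, 7 of 8 assembly factors are lower, and 9 of 13 complex IV subunits are higher (3 higher and 3 lower with library totals alone), and at right 63 of 94 nuclear members are lower in females.

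The complex I assembly factors stood out by their direction. These Ndufaf proteins bind or modify subunits while complex I is put together and are not part of the finished enzyme, and 7 of the 8 were lower in fasted mice, both with TMM and with library totals alone. Ndufaf5, a hydroxylase of the subunit Ndufs7, ran from 2.52 to 5.37 CPM with a median of 3.86 in the 36 control livers and from 1.17 to 3.82 CPM with a median of 2.11 in the 36 fasted ones. The ranges overlapped, although most fasted livers lay under the control median, and Ndufaf5 fell by 0.81 ± 0.0568 (SE, log2, adjusted p = 6.18e-17). Ndufaf6 went from a median of 9.11 CPM (7.31 to 11.5) to 6.65 CPM (4.35 to 11.2), a log2 effect of -0.41 ± 0.045 with an adjusted p of 8.3e-11. Ndufaf1, which joins an early membrane intermediate, went from 19.8 CPM (17.1 to 24.3) to 16.5 CPM (9.54 to 20.8), with an effect of -0.31 ± 0.0287. Ndufaf7, a methyltransferase, fell by 0.31 ± 0.0431, Ndufaf2 by 0.16, Ndufaf3 by 0.13 and Ndufaf8 by 0.11 on the log2 scale. Ndufaf4 went the other way, from 32.7 CPM (15.0 to 50.8) to 34.5 CPM (21.4 to 52.2), an effect of 0.13 ± 0.0465 with an adjusted p of 0.0115. That call of Ndufaf4 did not hold with library totals alone (0.04), without male replicate 1 (0.11), without male replicate 2 (0.14), without CT20 (0.10), without CT28 (0.10) or without CT44 (0.06), and in males alone the sign turned (-0.05).

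Promoters of some of the members that the following results turn on are shown, as the 180 bases before the transcription start that RefSeq gives on GRCm38.p6. Ndufaf5 and Atp5if1 had the deepest falls among the members of the liver enzyme complexes and their assembly factors. Ndufaf4 and Sdhd were among the members whose rhythms were called as differing between treatments. Capitals mark any of 4 motifs, searched on both strands in the 250 bases before the start: the NRF1 core GCGCATGC, the ETS core CCGGAAG, the YY1 core AAGATGGC and the E-box CACGTG.
Atp5if1, chr4:132535415-132535594, minus strand: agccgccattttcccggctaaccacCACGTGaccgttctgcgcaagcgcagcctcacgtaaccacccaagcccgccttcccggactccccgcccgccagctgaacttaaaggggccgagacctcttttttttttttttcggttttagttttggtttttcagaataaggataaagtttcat
Ndufaf5, chr2:140170466-140170645, plus strand: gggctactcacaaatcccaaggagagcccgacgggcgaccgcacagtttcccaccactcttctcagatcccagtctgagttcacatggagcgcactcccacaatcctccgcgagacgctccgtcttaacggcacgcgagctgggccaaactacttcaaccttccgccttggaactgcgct
Ndufaf4, chr4:24897903-24898082, plus strand: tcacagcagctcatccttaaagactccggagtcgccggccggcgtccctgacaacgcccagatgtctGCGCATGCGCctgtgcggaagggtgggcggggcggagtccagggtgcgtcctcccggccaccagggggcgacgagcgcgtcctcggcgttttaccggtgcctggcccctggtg
Sdhd, chr9:50603850-50604029, minus strand: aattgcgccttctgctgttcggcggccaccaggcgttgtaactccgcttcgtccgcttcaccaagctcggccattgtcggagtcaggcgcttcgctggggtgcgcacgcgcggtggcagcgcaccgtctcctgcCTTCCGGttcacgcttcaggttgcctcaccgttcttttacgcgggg

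The E-box of Atp5if1 began 155 bases before the start, the ETS core of Sdhd 46 bases before it, and in Ndufaf4 the NRF1 core was found 113 and 111 bases before the start, where overlapping matches on both strands form 1 run of capitals. None of the 4 motifs was found before Ndufaf5. The promoters of Ndufs7, Uqcrfs1 and Cox7a2l, which are not printed, had none of the 4 motifs either. Over the 77 nuclear members matched to a promoter (82 promoters), the NRF1 core was in 11.0% of promoters against 2.25% of all 32817 promoters, the ETS core in 17.1% against 6.9%, the E-box in 9.76% against 6.02% and the YY1 core in 1.22% against 1.56%. A match describes letters and not a bound site.

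Subunits of complex I split in both directions. Of the 39, 17 were higher and 8 lower in fasted mice, whereas with library totals alone 3 were higher and 19 lower. The largest effects lay in neighbouring iron-sulfur subunits of the arm that passes electrons to ubiquinone. Ndufs7 went from a median of 51.7 CPM (41.5 to 60.9) to 62.3 CPM (47.5 to 74.7), an effect of 0.28 ± 0.0286 (adjusted p = 1.17e-11). Ndufs8 went from 57.3 CPM (48.5 to 64.3) to 46.0 CPM (29.9 to 63.9), an effect of -0.27 ± 0.03 (adjusted p = 7.36e-11). The control and fasted ranges of both overlapped. Among the core subunits that hold the electron entry site, Ndufs1 had 125.9 CPM (99.0 to 147.5) in controls and 139.0 CPM (110.8 to 159.0) in fasted mice, an effect of 0.13 ± 0.0238 (adjusted p = 1.04e-05), and Ndufv1, which binds NADH, had an effect of 0.11 ± 0.0278 (adjusted p = 0.000725). Neither call held with library totals alone (0.04 and 0.02), and that of Ndufv1 was also lost without male replicate 1 (0.08) and in males alone (0.07). Ndufa5, an accessory subunit of the same arm, had an effect of 0.17 ± 0.0254.

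Complex II, succinate dehydrogenase, also belongs to the citric acid cycle, and its 4 subunits did not move together. Sdha, the flavoprotein that oxidizes succinate, was lower, from a median of 527.2 CPM (435.8 to 574.5) to 477.1 CPM (369.4 to 583.2), with an effect of -0.15 ± 0.0274 (adjusted p = 1.05e-05). Sdhd, one of its membrane anchors, was higher, from 158.4 CPM (143.5 to 188.5) to 171.2 CPM (135.1 to 228.8), with an effect of 0.11 ± 0.0256 (adjusted p = 0.000139). The Sdhd call was lost with library totals alone (0.02) and without male replicate 1 (0.09, adjusted p = 0.054). Sdhb, the iron-sulfur subunit, had an effect of -0.04 (adjusted p = 0.366) and Sdhc, the other anchor, of -0.05, and neither passed.

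In complex III, 5 of 8 subunits were higher and 1 lower (1 and 2 with library totals alone). Uqcrfs1, the Rieske iron-sulfur protein, went from a median of 156.0 CPM (127.8 to 180.0) to 176.7 CPM (154.2 to 217.9), an effect of 0.21 ± 0.0253 (adjusted p = 4.73e-10). The lone lower member was Uqcr11, a small subunit, with -0.12 ± 0.0296 (adjusted p = 0.000509), a call lost without male replicate 1 (-0.11, adjusted p = 0.0559) and in males alone (-0.07). Uqcrc1, a large core protein, had 0.07 ± 0.0276 (adjusted p = 0.0249), which passed in neither of the fits without a male replicate (0.08 and 0.05), nor without female replicate 2 (0.06), CT36 (0.06), CT40 (0.05) or CT44 (0.05), and its sign turned with library totals alone (-0.02). Uqcrh and Uqcr10 had effects of 0.12 and 0.11.

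Complex IV, cytochrome c oxidase, had 9 of its 13 nuclear subunits higher and 0 lower with TMM, but 3 higher and 3 lower with library totals alone. Cox7a2l, known for joining complexes III and IV in supercomplexes, went from a median of 61.4 CPM (49.2 to 74.2) to 74.2 CPM (64.9 to 103.8), an effect of 0.31 ± 0.0216 (adjusted p = 4.74e-17). Cox4i1, the common form of the regulatory subunit that binds ATP, went from 210.0 CPM (187.9 to 243.8) to 241.2 CPM (208.8 to 284.0), an effect of 0.21 ± 0.0203 (adjusted p = 2.56e-12). The ranges of both overlapped, and the fasted median of Cox7a2l was close to its highest control. Cox8a, Cox5b and Cox6a1 had effects of 0.16, 0.14 and 0.13, while Cox5a, at -0.02 (adjusted p = 0.356), did not pass.

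Complex V had 9 of 18 members higher and 5 lower (4 and 6 with library totals alone), and the deepest fall was that of its inhibitor. Atp5if1, the protein that blocks ATP hydrolysis when the synthase runs in reverse, went from a median of 11.8 CPM (7.30 to 18.1) to 6.74 CPM (4.90 to 16.1), and fell by 0.68 ± 0.0469 (log2, adjusted p = 4.19e-17). The highest fasted values of Atp5if1 came from CT12, as given below. The rotor subunit Atp5mc3 went from 255.4 CPM (184.9 to 283.1) to 287.1 CPM (232.0 to 342.6), an effect of 0.20 ± 0.0241 (adjusted p = 6.56e-10). The subunits of the catalytic head had smaller effects, 0.14 ± 0.0242 for Atp5f1b (adjusted p = 2.26e-06) and 0.10 ± 0.0253 for Atp5f1a (adjusted p = 0.000396), neither of which passed with library totals alone (0.05 and 0.01), and that of Atp5f1a also did not pass without male replicate 1 (0.09). Atp5f1d, Atp5po and Atp5pd of the central and outer stalks had 0.19, 0.18 and 0.18, and Atp5me, of the membrane part, had -0.15.

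The isoforms of other tissues or states were all scarce, and 3 of the 4 passed. Cox6b2, best known from testis, had 0 to 0.561 CPM with a median of 0.135 in controls and 0.173 to 1.75 CPM with a median of 0.822 in fasted mice, an effect of 2.39 ± 0.166 (adjusted p = 4.46e-17), which is the largest of any member but rests on few counts. Cox7a1, of heart and muscle, went from 0.617 CPM (0.270 to 1.34) to 0.413 CPM (0.0643 to 1.11), an effect of -0.68 ± 0.12 (adjusted p = 3.21e-06). Ndufa4l2, known as a hypoxia-induced relative of a cytochrome c oxidase subunit, went from 1.38 CPM (0.755 to 2.53) to 0.920 CPM (0.368 to 2.46), an effect of -0.64 ± 0.0783 (adjusted p = 1.22e-09). Cox4i2, the lung and hypoxia form of Cox4, had -0.59 ± 0.317 (adjusted p = 0.104) and did not pass, though it did without CT16 (-0.76, adjusted p = 0.0474). Skeletal and heart muscle markers summed to 0.757 CPM in the rRNA-rich control CT8 female 2 and to at most 0.172 CPM in the other 79 libraries.

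Transcripts of the mitochondrial genome did not shift as a block, although the genes of the heavy strand are made as shared precursors. The increases were all in complex I genes and mt-Cytb. In mt-Nd5, the median went from 6126 CPM (4378 to 7730) to 7814 CPM (5698 to 11400), an effect of 0.34 ± 0.0319 (adjusted p = 8.42e-13), and in mt-Nd2 from 6344 CPM (4525 to 7829) to 7132 CPM (4317 to 10760), an effect of 0.24 ± 0.0346 (adjusted p = 5.59e-08). Both encode proton-pumping membrane subunits, and their calls held with library totals alone. Effects of 0.14 ± 0.0508 for mt-Nd4l, 0.13 ± 0.0265 for mt-Cytb, 0.12 ± 0.0308 for mt-Nd1 and 0.09 ± 0.0245 for mt-Nd4 were also called, none of them with library totals alone, where that of mt-Nd4 turned (-0.00402). Without male replicate 1, the calls of mt-Nd4l (0.13), mt-Nd1 (0.10) and mt-Nd4 (0.07) were lost, as were those of mt-Nd4l (0.15) and mt-Nd4 (0.09) without male replicate 2, and that of mt-Nd4l without female replicate 1 (0.11), CT20 (0.12), CT32 (0.11) or CT36 (0.12). The complex IV genes mt-Co1 (-0.02, adjusted p = 0.530), mt-Co2 (0.00) and mt-Co3 (-0.03, adjusted p = 0.604) and the complex V genes mt-Atp6 (0.03, adjusted p = 0.614) and mt-Atp8 (-0.01, adjusted p = 0.990) did not pass. Nor did mt-Nd3, at -0.13 (adjusted p = 0.212).

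mt-Nd6 is the only protein gene read from the light strand, and its messenger is known in human cells to lack most of the poly(A) tail on which the library selection relies. It was the 1 mitochondrial member that was lower, from a median of 66.2 CPM (44 to 116.8) to 55.1 CPM (29.7 to 77.9), with an effect of -0.28 ± 0.0545 (adjusted p = 1.47e-05). It was called lower with library totals alone too, and in males alone it missed the threshold (-0.14, adjusted p = 0.0522). Of the mitochondrial ribosomal RNAs, which have no place in the member sets and are likewise read under poly(A) selection, mt-Rnr1 was lower, with -0.57 ± 0.124.

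Single times showed when the sets moved. At CT8, before food was removed, 0 of 107 members were called by edgeR (1.33% of all genes), and at CT12 again 0 (1.60% of all genes). The CT8 count depended on 1 library. Without the female replicates numbered 1, control CT8 had the rRNA-rich female 2 as its only female and 40 members were called, whereas without that library the count was 0. At CT16, 1 nuclear member was higher and 4 lower (11.5% and 11.9% of all genes), and 0 mitochondrial members were called. At CT20, 5 of 94 nuclear members were higher and 15 lower, both smaller shares than the 17.5% and 19.1% of all genes, and 4 mitochondrial members were higher and 0 lower. The median effects at that time were -0.034 over nuclear and 0.196 over mitochondrial members.

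From CT28 on more nuclear members were called higher than at CT20. At CT24, 4 were higher and 9 lower (12.2% and 11.9% of all genes), at CT28 9 and 9 (9.88% and 11.1%), and at CT32 17 and 7 (8.40% and 9.30%). At CT36, 35 of 94 were higher and 4 lower, against 12.8% and 14.0% of all genes, and the median nuclear effect was 0.157. CT40 had 27 higher and 12 lower (18.7% and 21.2% of all genes), and CT44 had 31 higher and 10 lower (18.7% and 20.7%). The mitochondrial set had 2 higher at CT24, 1 higher and 2 lower at CT28, and 2, 1, 2 and 3 higher at the times that followed. From CT12 to CT44, 199 pairs of a nuclear member and a time and 17 pairs of a mitochondrial member and a time were called. These totals were 67 and 3 without male replicate 1, 77 and 3 without male replicate 2, and 130 nuclear pairs when each time was fitted with its 8 libraries alone. Library totals alone were fitted for the mean fasting effect only, so the dependence of the counts at single times on that scaling was not tested.

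**Figure D3:**
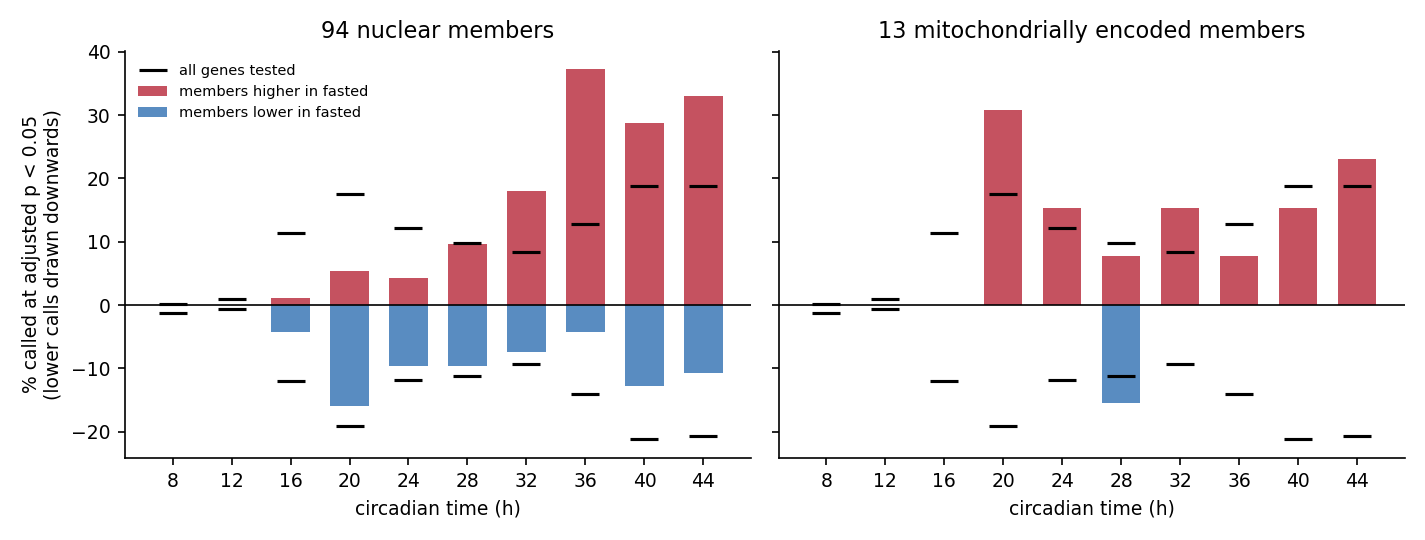
Percent of the nuclear set (94) and of the mitochondrial set (13) called higher (red, upward) and lower (blue, downward) in fasted mice at each circadian time (h), at an adjusted p under 0.05 with 4 livers against 4, with black ticks for all genes tested. Nuclear bars stand at 5 higher and 15 lower at CT20, both inside the ticks of all genes, and at 35 and 4 at CT36, under TMM scaling, and 0 members are called at CT8 and CT12.

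Over those times, 27 nuclear and 6 mitochondrial members were called at none, 45 nuclear members were higher at some time, 23 were lower at some time, and Atp5mj, a small ATP synthase subunit, was both (lower at CT20 and higher at CT36). Of all genes, 31.7% were called at none of these times, 33.7% were higher at some time and 37.7% lower. The most persistent were Cox6b2, higher, and Ndufaf1, lower, at each of the 8 times from CT16. Cox7a2l and mt-Nd5 were higher, and Atp5if1, Ndufaf5 and Ndufaf6 lower, at each of the 7 times from CT20. Ndufa5 and Uqcrfs1 were higher at the 6 times from CT24. Other assembly factors moved for a shorter span, with Ndufaf7 and Ndufaf8 lower from CT16 to CT24 and Ndufaf3 at CT16 and CT20. Among mitochondrial members, mt-Nd2 was higher at CT20, CT24, CT40 and CT44, mt-Nd1 at CT32 and CT44, and mt-Cytb and mt-Nd4 at CT20.

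Individual livers show the sizes behind these calls, in the order male 1, male 2, female 1, female 2. For Ndufaf5 at CT20, controls had 4.25, 4.03, 5.36 and 3.52 CPM and fasted livers 1.17, 1.29, 1.67 and 1.28 CPM, an effect of -1.67 ± 0.176 (adjusted p = 2.19e-10). The groups did not overlap, and all fasted livers were under every control. Ndufaf7 at CT20 had 11.3, 11.1, 9.67 and 9.42 CPM in controls and 6.34, 4.92, 6.32 and 5.17 CPM in fasted mice, an effect of -0.86 ± 0.132 (adjusted p = 9.25e-07), but at CT36 its effect was -0.03 ± 0.128 (adjusted p = 0.903). The ATP synthase inhibitor Atp5if1 did not differ detectably at CT12, with 9.23, 11.7, 18.1 and 17.2 CPM in controls and 10.7, 11.5, 16.1 and 14.1 CPM in fasted mice (-0.07 ± 0.138, adjusted p = 0.901). At CT20 it had 11.9, 9.76, 9.74 and 13.8 CPM in controls and 7.35, 6.27, 5.72 and 4.90 CPM in fasted mice (-0.91 ± 0.142, adjusted p = 1.32e-06), again without overlap. Cox6b2 at CT20 had 0.561, 0.0742, 0.108 and 0.0442 CPM in controls and 0.753, 0.834, 1.56 and 1.20 CPM in fasted mice (2.71 ± 0.478, adjusted p = 1.15e-05).

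Other members separated later in the fast. Ndufs7 at CT36 had 43.5, 48.5, 45.4 and 43.2 CPM in controls and 64.0, 73.0, 72.8 and 69.8 CPM in fasted mice, an effect of 0.63 ± 0.086 (adjusted p = 3.09e-07). Uqcrfs1 at CT36 had 140.9, 162.5, 156.0 and 156.6 CPM against 186.3, 203.6, 191.3 and 217.9 CPM (0.38 ± 0.076, adjusted p = 0.000197). Cox4i1 at CT36 had 196.5, 215.8, 205.1 and 208.9 CPM against 275.9, 267.3, 259.0 and 260.3 CPM (0.36 ± 0.061, adjusted p = 1.3e-05). In each of these 3 genes every fasted liver was above every control. Ndufs8 separated in the other direction at CT40, with 57.7, 58.3, 61.0 and 64.3 CPM in controls and 47.4, 47.0, 46.1 and 29.9 CPM in fasted mice (-0.51 ± 0.0904, adjusted p = 1.2e-05). For Cox7a2l at CT44, the values were 61.4, 59.1, 55.9 and 52.4 CPM in controls and 73.0, 82.5, 103.8 and 81.9 CPM in fasted mice (0.57 ± 0.0649, adjusted p = 1.4e-09), and female 1 of the fasted livers stood highest.

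The ATP synthase rotor gene Atp5mc3 had 245.2, 283.1, 244.6 and 272.9 CPM in controls at CT40 and 342.6, 328.5, 325.6 and 279.2 CPM in fasted mice (0.29 ± 0.0722, adjusted p = 0.00133). One fasted liver, female 2, lay within the control range, and without male replicate 1 the effect was 0.21 (adjusted p = 0.186). The Atp5mc3 call was also lost with the 8 libraries of CT40 alone. Sdhd at CT44 had 154.0, 155.0, 150.7 and 143.5 CPM in controls and 166.3, 165.9, 201.0 and 186.3 CPM in fasted mice (0.25 ± 0.0768, adjusted p = 0.00783), with no overlap, though the call was lost without male replicate 1 (0.23, adjusted p = 0.137) and without male replicate 2 (0.25, adjusted p = 0.133). Sdha at CT28 had 558.9, 560.7, 504.4 and 439.9 CPM against 461.7, 486.0, 419.3 and 383.0 CPM (-0.24 ± 0.0822, adjusted p = 0.0322). The Sdha ranges overlapped, and the call was lost without male replicate 1 (-0.23), male replicate 2 (-0.25) or female replicate 1 (-0.22). It was also lost with the 8 libraries of CT28 alone.

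Among mitochondrial transcripts, mt-Nd5 at CT20 had 5526, 7328, 5907 and 5364 CPM in controls and 8146, 8745, 7313 and 7244 CPM in fasted mice (0.38 ± 0.0956, adjusted p = 0.00133). One control, male 2, lay within the fasted range, and the call was lost without male replicate 1 (0.30, adjusted p = 0.116). At CT44, mt-Nd5 had 7431, 7077, 6161 and 6509 CPM against 10003, 11397, 9346 and 9108 CPM (0.55 ± 0.0958, adjusted p = 8.46e-06), without overlap. The light-strand mt-Nd6 at CT28 had 55.0, 61.7, 60.3 and 74.1 CPM against 47.3, 37.8, 47.6 and 51.9 CPM (-0.45 ± 0.164, adjusted p = 0.0457), and the call was lost without either male replicate (-0.58 and -0.32), without female replicate 2 (-0.40) and with DESeq2 size factors (-0.43, adjusted p = 0.051). For mt-Nd3 at CT28, controls had 91.4, 157.9, 179.1 and 53.1 CPM and fasted mice 61.6, 88.4, 67.8 and 55.7 CPM (-0.82 ± 0.273, adjusted p = 0.0251). The lowest control of mt-Nd3 lay under every fasted liver, and the call was lost without male replicate 1 (-0.88), male replicate 2 (-0.74) or female replicate 1 (-0.33). It was also lost with limma voom and with the 8 libraries of CT28 alone.

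**Figure D4:**
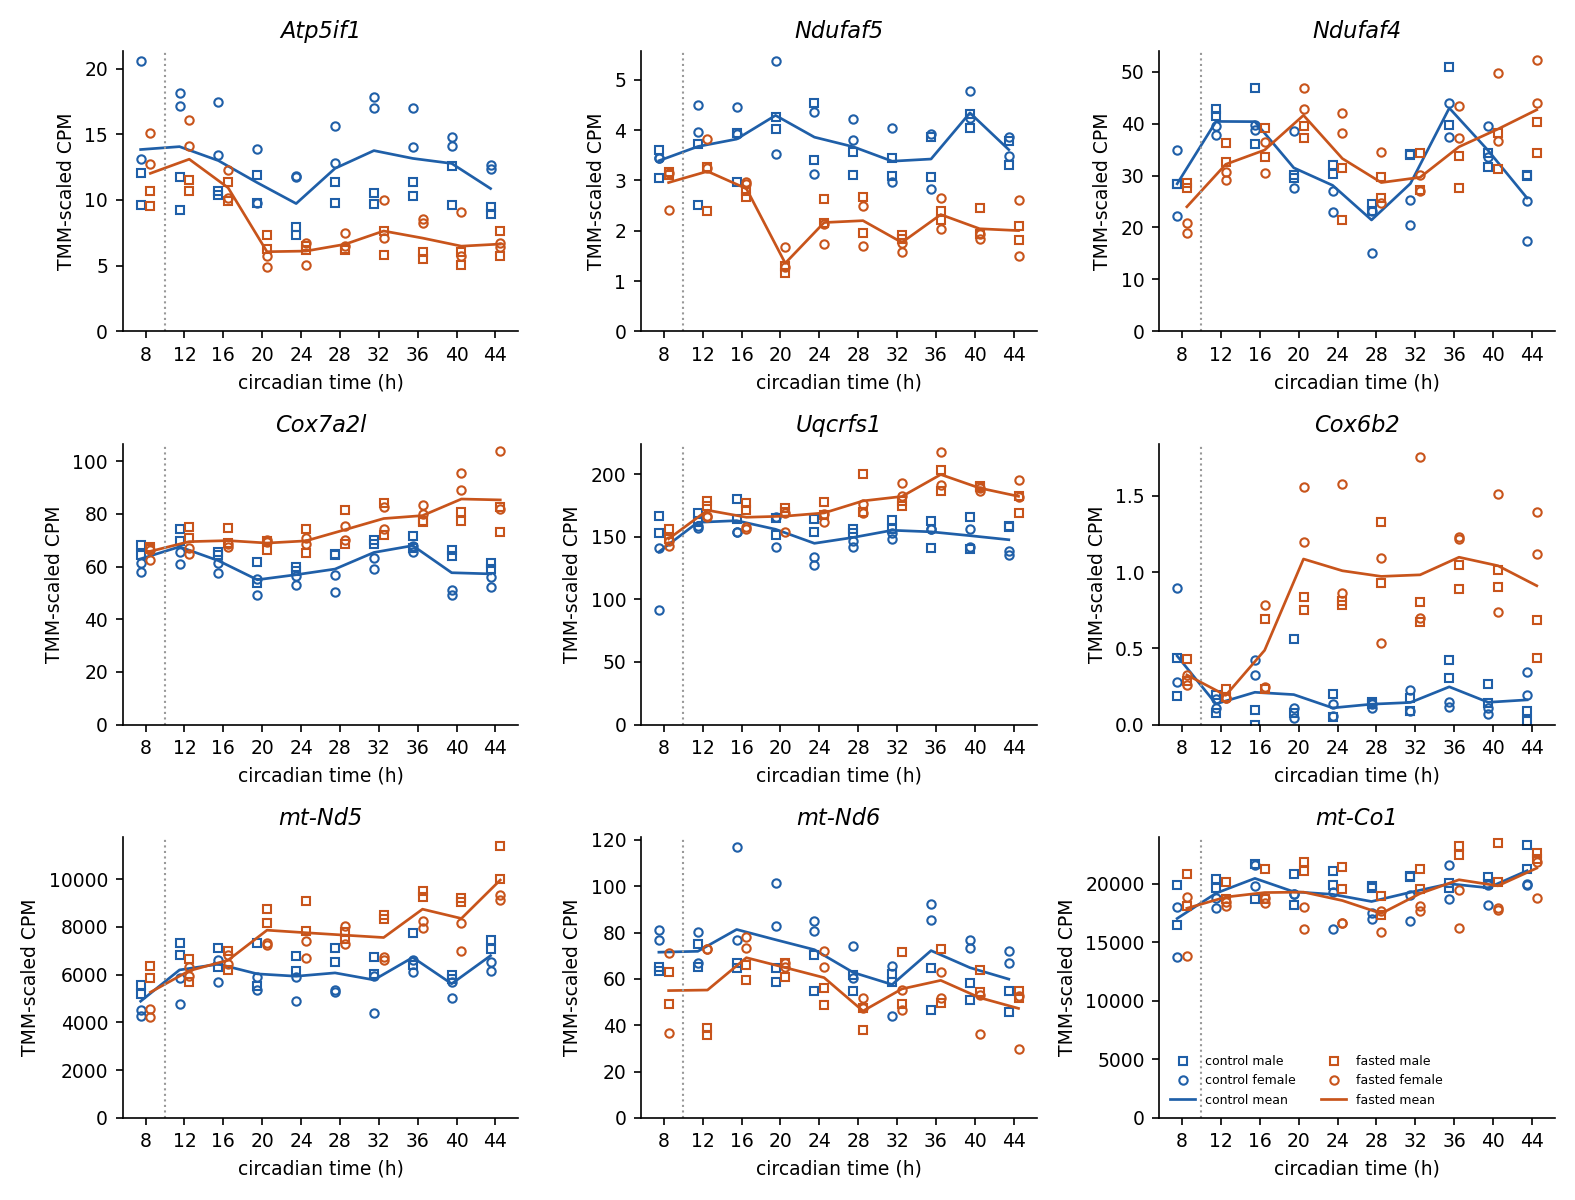
TMM-scaled CPM (linear axes from 0) of 9 members against circadian time (h), squares for males and circles for females, lines through means of 4 livers, and a dotted line at food removal, CT10. Fasted values of Ndufaf5 and Atp5if1 are called lower, and those of Cox7a2l and mt-Nd5 higher, at each time from CT20 on, while mt-Co1 has overlapping values.

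The next comparison asked whether the effect of fasting grew or shrank as the fast went on, as the slope of the log2 effect per 10 h from CT12 to CT44. Slopes of nuclear members were mostly upward, with 38 of 94 rising and 6 falling, against 11.0% and 12.6% of all genes. Of the 13 mitochondrial members, 2 rose, mt-Nd5 by 0.157 ± 0.0308 per 10 h (adjusted p = 0.000178) and mt-Nd1 by 0.10 ± 0.0299 (adjusted p = 0.0112). Complex I had 13 rising and 2 falling, complex III 5 and 0, complex IV 6 and 0, and complex V 9 and 1, whereas the assembly factors had 3 and 2. The counts of calls relied on all libraries: 8 nuclear members rose without male replicate 1 and 11 without male replicate 2, nuclear falls were 2 and 1 in those fits and 1 without CT12, and the mitochondrial count was 1 and 0, and 1 without CT12 or without CT16. Slopes were not fitted with library totals alone.

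Rises that held in each of these fits included those of Cox7a2l, by 0.130 ± 0.0209 per 10 h (adjusted p = 9.11e-06), Ndufs7, by 0.147 ± 0.0277 (adjusted p = 9.75e-05), and Sdhd, by 0.145 ± 0.0248 (adjusted p = 2.23e-05). Ndufa8, an accessory subunit of complex I, rose by 0.147 ± 0.0235 (adjusted p = 8.43e-06) over all libraries. Among those that fell, Atp5if1 had -0.204 ± 0.0452 per 10 h (adjusted p = 0.000764), Ndufs8 -0.123 ± 0.0291 (adjusted p = 0.00151) and Cox7a1 -0.498 ± 0.121 (adjusted p = 0.00195). Without CT12, when these were -0.13, -0.08 and -0.38, none of the 3 passed, and neither did Ndufs8 without male replicate 1 (-0.13) or male replicate 2 (-0.12), nor Cox7a1 without male replicate 2 (-0.40) or CT44 (-0.37). The slope of mt-Nd5 was 0.12 and did not pass without male replicate 2, and that of mt-Nd1 did not pass without male replicate 1 (0.12), male replicate 2 (0.07), CT12 (0.08) or CT16 (0.09). Markers of Kupffer cells had 4 of 5 slopes falling, those of stellate cells 4 of 5 and those of erythroid cells 5 of 5, and their part in the slopes was not tested.

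In the control livers alone, a 24 h cosine asked which members were rhythmic under constant darkness with food present. Of 93 nuclear members tested (Cox4i2 had too few counts), 33 were called rhythmic, a share below that of all genes (41.8%), and 8 of 13 mitochondrial members were. The rhythms were shallow, in that the median log2 distance from peak to trough was 0.228 over called nuclear members, against 0.499 over all called genes. They were also close in time: 29 of the 33, or 87.9%, peaked between CT12 and CT20, within the subjective night, when mice are active and feed, against 29.4% of all called genes. This window was not among the planned tests, and the median peak of these same members lies near its middle. The 2 shares therefore describe the peaks and are not a test. Peaks of called nuclear members ran from CT4.4 to CT18.8 with a median of CT15.8, and those of mitochondrial members came later, from CT15.7 to CT21.1 with a median of CT20.0. These peaks come from fits that include the rRNA-rich control CT8 female 2, and its part in their timing was not tested. Without that library, the nuclear members named in the next paragraph kept their calls. Complex I had 15 called, complex V 9, the assembly factors 3, complex III 3, complex IV 2 and complex II 1. Without female replicate 1, 14 nuclear and 5 mitochondrial members were called, and without female replicate 2, 21 nuclear members.

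Ndufaf4 had the deepest rhythm of any nuclear member, 0.84 from trough to peak (log2), and was highest at CT14.1. Its control means were 40.4 ± 2.19 CPM (SD, n = 4) at CT12, 21.4 ± 4.32 at CT28, 43.0 ± 5.91 at CT36 and 25.7 ± 5.99 at CT44, so that the high values came back 24 h apart. Atp5if1 had a difference of 0.42 with a peak at CT11.0, Ndufa5 of 0.36 at CT15.6, Ndufb8 of 0.33 at CT16.3, Uqcr10 of 0.28 at CT16.9, Cox7a2l of 0.27 at CT10.6 and Cox5a of 0.24 at CT16.4. Ndufaf1 stood apart in phase, with a shallow rhythm of 0.13 and a peak at CT4.4, and lost its call without male replicate 1, male replicate 2 or female replicate 1 (adjusted p = 0.0570, 0.309 and 0.0544). Sdhd, with 0.19 at CT14.1, was not called when any 1 of the 4 replicate sets was left out (adjusted p from 0.0655 to 0.123).

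In the mitochondrial set, the peak-to-trough differences of the 8 called members were 0.59 for mt-Nd3 (peak CT21.1), 0.44 for mt-Nd4l (CT20.4), 0.36 for mt-Co2 (CT18.9), 0.32 for mt-Atp6 (CT19.5), 0.32 for mt-Co3 (CT20.5), 0.31 for mt-Nd4 (CT20.2), 0.30 for mt-Cytb (CT19.7) and 0.25 for mt-Nd1 (CT15.7). All of these but mt-Nd1 peaked within CT18.9 to CT21.1. Several had a copy in the nuclear genome, as given above. Without control CT8 female 2, mt-Nd3 and mt-Atp6 were not called (adjusted p = 0.0672 and 0.0575), and when a straight-line trend was added to the fit mt-Nd3, mt-Atp6 and mt-Co3 were not (adjusted p = 0.106, 0.135 and 0.0963). Calls were further lost without a replicate set for mt-Nd3 (female 1, male 1, male 2), mt-Atp6 (female 1, female 2), mt-Co3 (female 1, male 1) and mt-Nd1 (female 2, male 1), with adjusted p from 0.0524 to 0.259. Of the 8 members, only mt-Nd4 and mt-Nd4l kept their calls in males alone.

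**Figure D5:**
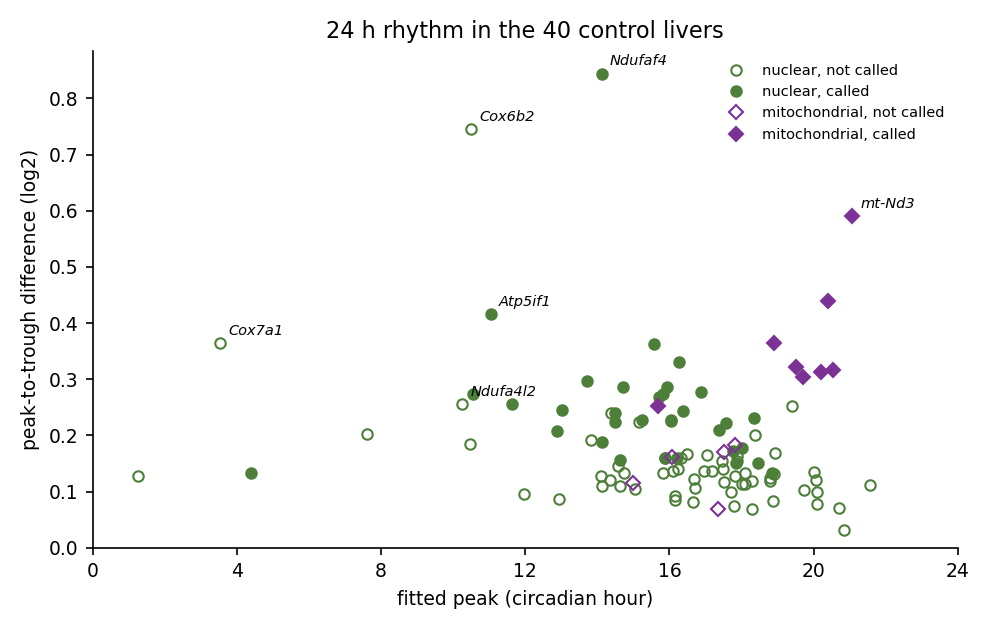
Fitted peak (circadian hour) against the log2 distance from trough to peak of the 24 h cosine in the 40 control livers, circles for nuclear and diamonds for mitochondrial members, filled where called (adjusted p under 0.05). Of the called nuclear members 29 of 33 lie between CT12 and CT20, Ndufaf4 is the deepest at 0.84, and called mitochondrial members lie at CT15.7 to CT21.1.

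A test of the difference in rhythm between treatments, over CT12 to CT44 with a linear change in each treatment, called 13 of 93 nuclear members and 0 of 13 mitochondrial members, against 23.2% of all genes. At an unadjusted p under 0.05, 29 nuclear and 0 mitochondrial members passed in edgeR, against 35.3% of all genes. Ndufaf4 spanned 0.817 from trough to peak in controls, highest at CT14.0, and 0.491 in fasted mice, highest at CT18.3 (adjusted p = 0.0005). Cox7a2l, with 0.279 and 0.0909 (adjusted p = 0.036), and Ndufb8, with 0.271 and 0.092 (adjusted p = 0.012), were shallower in fasted mice as well. In other members the fitted peak lay at another hour, as for Ndufs7, with 0.159 at CT18.5 and 0.224 at CT8.10 (adjusted p = 0.001), and Sdhd, with 0.162 at CT13.6 and 0.305 at CT9.34 (adjusted p = 0.0051). A group of 3 other assembly factors had deeper fitted rhythms in fasted mice, 0.264 and 0.786 for Ndufaf7 with peaks at CT8.95 and CT8.97 (adjusted p = 0.0095), 0.279 and 0.528 for Ndufaf6 (adjusted p = 0.045) and 0.0432 and 0.399 for Ndufaf8 (adjusted p = 0.0036). The others were Atp5f1e, Ndufb6, Ndufb7, Ndufb10 and Ndufv3. Without male replicate 1, male replicate 2 or female replicate 1, the nuclear count was 8, 6 and 5, and of the 13 only Ndufaf4, Ndufaf8 and Ndufs7 were called without each of the 4 replicate sets. When the linear change was left out of the fit, Sdhd, Cox7a2l, Ndufaf6, Ndufb6, Ndufb7 and Ndufb10 lost their calls. In the fasted livers, Ndufaf4 stayed at 41.6 ± 4.15 CPM (SD, n = 4) at CT20 and at 42.7 ± 7.49 CPM at CT44.

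At single times, Ndufaf4 was called higher in fasted mice at CT20, CT28 and CT44 and lower at none. At CT20, controls had 29.6, 30.2, 38.6 and 27.6 CPM and fasted mice 39.5, 37.3, 46.8 and 42.8 CPM (0.40 ± 0.139, adjusted p = 0.0209). At CT28, the values were 23.1, 24.5, 15.0 and 23.1 CPM against 29.7, 25.7, 34.6 and 24.6 CPM (0.43, adjusted p = 0.0238). These calls were lost without male replicate 1 (0.36 at CT20 and 0.35 at CT28) or male replicate 2 (0.43 and 0.50), that of CT20 also without female replicate 2 (0.31) and that of CT28 without female replicate 1 (0.16). The CT28 call was also lost with the 8 libraries of that time alone. At CT36, when controls were high again, the effect was -0.29 ± 0.139 (adjusted p = 0.125), and at CT44 it was 0.74 ± 0.14 (adjusted p = 3.21e-05). An NRF1 core was found in 9 of the 77 nuclear members matched to a promoter, Ndufaf4 among them, and its part in these effects was not tested.

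Males and females differed in these genes while fed. In controls (20 females against 20 males), 63 of 94 nuclear members were lower and 2 higher in females, against 18.6% lower and 20.6% higher of all genes, and 10 of 13 mitochondrial members were lower and 1 higher. Median differences, females minus males, were -0.13 over nuclear members and -0.24 over mitochondrial members, against 0.0138 over all genes. All 13 nuclear subunits of complex IV were lower in females, as were 7 of 8 of complex III, 26 of 39 of complex I, 11 of 18 of complex V, 2 of 4 of complex II and 4 of 8 assembly factors. As a share of counts, the mitochondrial set took 5.45% ± 0.647 (SD, n = 20) in females and 6.09% ± 0.365 in males, and the nuclear set 0.941% ± 0.108 and 1.01% ± 0.0478. Without male replicate 1, 41 nuclear members were lower.

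Among nuclear members, Cox7a2, the liver form of a small cytochrome c oxidase subunit, ran from 42.0 to 77.3 CPM with a median of 64.3 in females and from 72.5 to 97.7 CPM with a median of 79.5 in males, a difference of -0.35 ± 0.0363 (adjusted p = 8.32e-11). Uqcr10, a small subunit of complex III, had 52.8 CPM (35.7 to 63.2) in females and 65.1 CPM (57.2 to 75.5) in males, a difference of -0.30 ± 0.0329 (adjusted p = 2.73e-10). In the mitochondrial set, mt-Nd2 had 5370 CPM (4484 to 6698) and 6905 CPM (6194 to 7829), a difference of -0.34 ± 0.0464 (adjusted p = 5.73e-08), and mt-Co3 had 968 CPM (577 to 1396) and 1312 CPM (1078 to 1786), a difference of -0.39 ± 0.0549 (adjusted p = 1.24e-07). In each of these 4 genes the female median lay under the lowest male, although the ranges overlapped. Going the other way, Atp5if1 had 14.1 CPM (9.74 to 20.6) in females and 10.0 CPM (7.30 to 12.6) in males, a difference of 0.52 ± 0.062 (adjusted p = 2.45e-09), and mt-Nd6 had 76.9 CPM (44 to 116.8) and 61.9 CPM (45.9 to 75.3), a difference of 0.36 ± 0.073 (adjusted p = 9.18e-05). Cox7a1 was the other member higher in females, by 0.42 ± 0.15 (adjusted p = 0.0231), a call lost without male replicate 2 (0.43), female replicate 1 (0.30) or female replicate 2 (0.45).

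Markers of other cell types moved with sex as well. Of 5 Kupffer cell markers, 5 were higher in females, with summed levels of 256.5 to 633.2 CPM in females and 178.3 to 369.5 CPM in males, and of 5 endothelial markers 4 were higher, with 258.6 to 315.7 CPM and 215.4 to 261.1 CPM. All 5 T and B cell markers were higher in females (2.21 to 82.95 CPM with a median of 3.54, against 0.891 to 5.82 CPM with a median of 2.42). The 82.95 CPM came from control CT8 female 2, and the other 19 females had at most 5.76 CPM. Erythroid markers were lower in females, 5 of 5, with 53.4 to 116.3 CPM and 197.2 to 286.9 CPM. Of 5 hepatocyte markers, 1 was higher and 2 lower in females. The part of these cells in the sex difference of the members was not tested.

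A sex difference in the mean fasting effect itself was found for 7 of 94 nuclear members (12.4% of all genes) and for 0 of 13 mitochondrial members. At an unadjusted p under 0.05, 19 nuclear and 1 mitochondrial member, mt-Nd6, passed in edgeR, against 26.3% of all genes. Atp5if1 fell more in females, with effects of -0.85 in females and -0.51 in males (difference -0.34 ± 0.0935, adjusted p = 0.0116), as did Ndufa4l2 with -0.88 and -0.39 (difference -0.49 ± 0.156, adjusted p = 0.0312). Cox7a2l rose more in females, with 0.42 and 0.20 (difference 0.22 ± 0.0432, adjusted p = 0.00073). Ndufaf4 had 0.32 in females and -0.05 in males (difference 0.37 ± 0.093, adjusted p = 0.00628), Ndufa8 0.21 and -0.0088 (difference 0.22 ± 0.0485, adjusted p = 0.00218), Ndufa7 -0.0018 and 0.20 (difference -0.21 ± 0.0507, adjusted p = 0.0052) and Ndufb4 -0.19 and 0.02 (difference -0.20 ± 0.0574, adjusted p = 0.0141), the last 3 of them accessory subunits of complex I. The count was 0 without male replicate 1, 1 without male replicate 2, when Cox7a2l remained, and 11 without female replicate 2, and 1 mitochondrial member was called without female replicate 1.

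Other genes of the pathway were followed as fixed lists, of which the averaged fasting effect is read against 29.5% of all genes higher and 32.9% lower. These lists were counted with TMM scaling only. Regulators that drive expression of both genomes had 14 of 20 higher and 0 lower in fasted mice on average, with a median effect of 0.208, among them the coactivator Ppargc1a (1.73 ± 0.115), the mitochondrial transcription factors Tfb2m (0.46) and Tfam (0.24) and the nuclear receptor Esrra (0.34). Markers of mitochondrial content had 8 of 10 higher and 1 lower (median 0.233), with the import receptor Tomm20 at 0.42 and the prohibitin Phb2 at 0.39, and citrate synthase, Cs, at -0.36. Genes for processing and stability of mitochondrial RNA had 8 of 18 higher and 4 lower (median 0.063), among them Hsd17b10, a part of mitochondrial RNase P that is also a dehydrogenase of fatty acid and amino acid breakdown, at 1.42 ± 0.048.

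Assembly factors outside the Ndufaf family had 19 of 34 lower and 9 higher (median -0.074, against -0.02 over all genes), among them Bcs1l, which inserts the Rieske protein into complex III, at -0.47, and Timmdc1, of complex I, at -0.40, while Sco2, a copper chaperone of complex IV, was at 0.92. Mitochondrial ribosomal proteins had 35 of 78 lower and 17 higher (median -0.043), with Mrps27 at -0.63 and Mrpl17 at 0.55. Electron carriers and coenzyme Q genes had 6 of 12 higher and 4 lower (median 0.0135), with Cycs, cytochrome c, at 0.35 and Coq8a, a kinase-like protein of coenzyme Q synthesis, at -0.76. In the slope over time, 25 of 78 mitochondrial ribosomal protein genes, 10 of 18 RNA processing genes and 9 of 10 content markers rose, with 6, 0 and 0 falling, against 11.0% rising and 12.6% falling of all genes. In the sex comparison of controls, 44 of 78 mitochondrial ribosomal protein genes were lower and 1 higher in females, as were 14 and 2 of the 34 other assembly factors and 8 and 1 of the 12 carrier genes, against 18.6% lower and 20.6% higher of all genes. In the rhythm test of controls, 39 of 78 mitochondrial ribosomal protein genes and 12 of 20 regulators were called, against 41.8% of all genes.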

How the data were processed

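The article given with these data is a review without methods for this experiment, so the tests were chosen here. The authors deposited raw counts per gene and mouse, whole numbers without normalization. Their notes name Trimmomatic, HISAT2, DESeq2 and GRCm39, in no stated role. The counting program and its strand setting are not given in the sources used here. Tables of normalized values and of exon counts deposited by the authors were not used here. Titles and detailed labels disagree on sex and on treatment for 40 libraries each, and titles were used. Totals per library are given in the report.

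Members and lists were chosen with earlier results of these data known. Genes passing filterByExpr (21187 of 78275 rows) were scaled by TMM and fitted in edgeR 4.0.16 (R 4.3.3) by the quasi-likelihood method, with 1 mean per combination of treatment, time and sex, and Benjamini-Hochberg adjustment over all genes. Effects were averaged over CT12 to CT44, taken per time, as slopes per 10 h, and between sexes. The 40 controls were fitted with a 24 h cosine and sex, and 72 libraries with a cosine per treatment. Log values use a prior count of 2. Alternatives included limma 3.58.1, DESeq2 1.42.0, other scalings, and each replicate left out. Each replicate number of a sex spans 20 libraries. Members named with full values were all mitochondrial genes, in each complex the largest called fasting effects and rhythm, fixed core subunits and the isoforms of other tissues. Other members were named after their values were seen. Copies were sought with blastn 2.17.0 among annotated transcripts. The scripts were tested on simulated data.

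Same-numbered mice do not share a source by the labels. Over 20 pairs the correlation of their deviations was -0.0564 to 0.249 (median 0.00193), with 1 over 0.1, so the numbers were taken not to pair the samples. P-values cover the spread between mice of this experiment.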

Additional observations from a re-analysis of the deposited data

Results flagged for a closer look

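One library lay far from its group by Dixon's ratio of the gap to the range. Over 40 groups tested, in which chance alone flags about 1 in 20, this was the nuclear share of counts in control CT8 female 2, 0.521% against a mean of 0.846% in its group. That library also had 31.3% of its counts on Rn18s-rs5, and the part of this in its member levels was not tested.

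The fasting effect differed between the sexes, by a test of the difference, for Atp5if1 (-0.34), Ndufa4l2 (-0.49), Ndufa7 (-0.21), Ndufb4 (-0.20), Cox7a2l (0.22), Ndufa8 (0.22) and Ndufaf4 (0.37), each as the log2 effect in females minus that in males. These were 7 of 94 nuclear members (7.45%), a smaller share than the 12.4% of all genes. Rhythms differed between treatments for 13 of 93 nuclear members (14.0%), again a smaller share than the 23.2% of all genes. The fasting effect changed over time for 44 of 94 nuclear members (46.8%) and 2 of 13 mitochondrial members (15.4%), against 23.6% of all genes.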

How the results depend on the processing

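The counts of calls in 20 results were recomputed under the alternatives fitted for each. Library totals alone were fitted for the mean fasting effect only. With library totals alone the mean fasting effect had 12 nuclear members higher and 42 lower and 2 mitochondrial higher and 4 lower. Without the filter on low counts it had 27 nuclear and 3 mitochondrial members higher and 2 mitochondrial lower, and a change of at least 1.5 times left 1 and 4 nuclear members and 0 and 0 mitochondrial ones. In males alone 0 mitochondrial members were lower. The called named effects that changed sign were Uqcrc1 (-0.0207) and mt-Nd4 (-0.00402) with library totals alone, and Ndufaf4 (-0.0505) in males alone. Control rhythms gave 20 nuclear members without the filter, 17 over CT8 to CT28, 3 in males alone, 20 without sex in the model, 19 at an adjusted p under 0.01 and 1 at a peak-to-trough ratio of 1.5. The mitochondrial rhythm count was 5 with a linear change, 2 over CT8 to CT28, 2 in males, 3 in females, 5 without sex, 5 at 0.01 and 1 at the ratio of 1.5. Each time fitted alone gave 130 nuclear pairs. The causes were not tested, beyond the fewer libraries in some fits.

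With a replicate set or a time left out, nuclear members with a mean fasting effect ranged from 25 to 47 higher and 16 to 26 lower and mitochondrial ones from 3 to 6 higher (1 lower throughout). Slopes ranged from 8 to 38 nuclear rises and 1 to 8 falls and from 0 to 3 mitochondrial members, sex differences in fasting from 0 to 11 and 0 to 1, sex differences in controls from 1 to 3 nuclear members higher and 41 to 64 lower and 7 to 11 mitochondrial members lower, control rhythms from 14 to 30 and 5 to 7, and rhythm differences from 5 to 11 and 0. Single-time pairs ranged from 67 to 202 and 3 to 21, and members called at CT8 from 0 to 40. With a replicate block, the mean fasting effect had 42 and 24 nuclear members and 6 and 1 mitochondrial members, rhythms 31 and 8, and single times 196 and 17 pairs, and no count moved by over 1.5 times. Of single named effects, 2492 recomputed values kept their side of the threshold, 257 lost the call, 17 gained one and 3 called effects changed sign, while 55 values changed sign without a call in either fit. With 4 livers per group at a time, small differences were not detectable.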
